A study of Mus musculus with 24 samples.

Results

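The 10 genes described here belong to bone morphogenetic protein (BMP), growth differentiation factor (GDF) and activin signalling and were followed in cells sorted from mouse hindlimb muscle. They were taken from the gene count table by symbol: the ligand genes Bmp2, Bmp4, Bmp6, Gdf10, Gdf15, Inhba and Inhbb, the antagonist genes Fst and Grem1, and the modulator gene Bmper. All 10 had a row among the 52997 symbols of the table. The muscle came from C57BL/6 mice aged 8 weeks and was taken 1 day after cardiotoxin injury or uninjured. Cardiotoxin comes from cobra venom and kills muscle fibers, after which resident stem cells rebuild the muscle. From each condition 4 populations were sorted, which gave 8 groups of 3 libraries: CD31+ endothelial cells, CD45+ hematopoietic cells, mesenchymal stromal cells (MSC; negative for CD45 and CD31, positive for Sca1 and PDGFRa) and muscle stem cells, or satellite cells (MuSC; negative for CD45, CD31 and Sca1, positive for Vcam1). Nothing in the labels names a genetic change in these mice. Whether equally numbered libraries shared a mouse, and whether the 3 of a group came from separate mice, is not stated in the labels. The spread behind each p-value is that among the libraries at hand and may be technical.

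BMPs, GDFs and activins are secreted dimers of the TGF-beta superfamily. They bind pairs of type I and type II serine/threonine kinase receptors, which phosphorylate SMAD proteins: most BMPs act through SMAD1, SMAD5 and SMAD9, and activins through SMAD2 and SMAD3. Antagonists such as follistatin, gremlin and the chordin family bind the ligands outside the cell. In muscle, BMP signals are known to sustain the division of satellite cells and their progeny, while activins and myostatin restrain muscle mass and follistatin relieves that restraint. GDF15 is a distant member that acts on a receptor of the hindbrain and is best known as a hormone of cell stress.

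Levels are given in CPM, the read count of a gene scaled to a common library total, with library sizes adjusted by the TMM method of edgeR. Library totals ranged from 2301202 to 7649841 counts. The upper limit set by a gene with no count, 3 counts, equals 0.389 to 1.02 CPM in a single library, and this limit covers counting error only. The defining transcripts summed highest in the population sorted for them. The summed level of 8 stromal markers was 19576 to 23786 CPM in injured MSC and 63338 to 88493 CPM in uninjured MSC, that of 8 endothelial markers 8067 to 8646 and 10079 to 11713 CPM in injured and uninjured CD31+ cells, that of 8 leukocyte markers 30685 to 32301 and 25301 to 30339 CPM in injured and uninjured CD45+ cells, and that of 8 satellite cell markers 4416 to 4845 and 5866 to 6935 CPM in injured and uninjured MuSC. Libraries that stood apart by these and other markers were injured MuSC replicates 2 and 3, injured CD45+ replicate 3, injured CD31+ replicate 1 and uninjured MuSC replicate 3. The stromal transcript Pdgfra was at 48.8 and 25.4 CPM in these MuSC libraries and at 6.31 CPM in the CD45+ library, and the myeloid transcript Lyz2 was at 108 CPM in the CD31+ library, against 1.75 and 0.159 CPM in the other two. In the uninjured MuSC library 4 tendon markers summed to 121 CPM, against 3.49 and 2.37 CPM in the other two and 13.7 to 20.6 CPM in injured MuSC. Transcripts of muscle fibers, 8 summed, were lower after injury: 3.08 to 14.1 CPM in injured and 154 to 416 CPM in uninjured MSC, and 184 to 228 CPM in injured and 465 to 530 CPM in uninjured MuSC. In MSC 4 tendon markers summed to 11.9 to 28.5 CPM injured and 95.1 to 440.0 CPM uninjured, and the 8 endothelial markers to 13.1 to 20.1 CPM injured and 95.1 to 119.9 CPM uninjured. In CD31+ cells 6 mural cell markers summed to 299.8 to 487 CPM injured and 561 to 794 CPM uninjured. The same 6 summed to 484 to 972 CPM in injured and 1137 to 1960 CPM in uninjured MuSC, mostly from members other than Rgs5. Rgs5 itself was at 2.95 to 4.07 CPM in uninjured MuSC and at 111 to 235 CPM in uninjured CD31+ cells. The 8 stromal markers summed to 467 to 1101 CPM in injured and 1530 to 1724 CPM in uninjured MuSC. The part of these markers and libraries in the results was not tested beyond the fits without a library given below. In sorted bulk samples, fewer cells of a type and less RNA per cell cannot be told apart.

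The leading gene differed between the populations. Among the 10 genes compared per kilobase of exon, Bmp4 led in injured and uninjured MuSC (66.1 and 197 CPM per kb) and in injured and uninjured CD31+ cells (32.2 and 36.5 CPM per kb). Gdf10 led in injured and uninjured MSC (29.1 and 146 CPM per kb), followed in injured MSC by Fst (27.2 CPM per kb), Bmper (23.1) and Bmp4 (13.5), and in uninjured MSC by Bmp4 (73.6), Fst (42.8) and Bmper (21.6). Gdf15 led in injured CD45+ cells (7.29 CPM per kb), while the highest value in uninjured CD45+ cells was that of Bmp2 (1.29). Exon lengths are unions over the transcripts of GENCODE vM21.

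**Figure D1:**
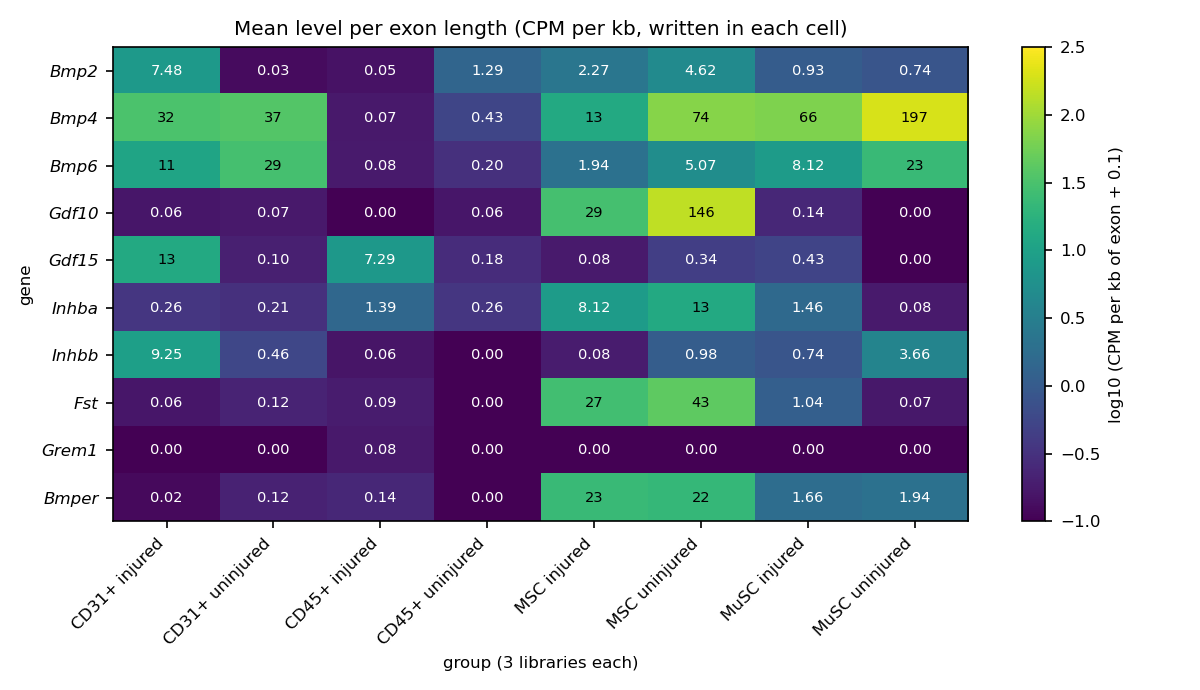
Mean level of each gene per kilobase of exon, in CPM per kb, over 3 libraries in each of the 8 groups (color: log10 of the value + 0.1). Bmp4 reaches 197 CPM per kb in uninjured MuSC and Gdf10 reaches 146 CPM per kb in uninjured MSC, while the CD45+ columns stay at or below 7.29.

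A gene was called highest in a population when it passed edgeR's quasi-likelihood test (adjusted p below 0.05) against all 3 others and its level was higher there. In uninjured muscle this held for 7 of the 9 genes that could be tested, where 40.6% of all 16263 genes tested were highest in 1 population. Bmp2, Gdf10, Inhba, Fst and Bmper were highest in MSC (9.09% of all genes tested) and Bmp4 and Inhbb in MuSC (7.88%). For CD31+ and CD45+ cells the share of all genes was 9.92% and 13.7%. In injured muscle it held again for 7 genes (40.6% of all genes tested): Gdf10, Inhba, Fst and Bmper in MSC (5.75%), Bmp4 in MuSC (8.63%), and now Bmp2 and Inhbb in CD31+ cells (10.8%; CD45+ cells 15.4%). Bmp6 and Gdf15 were highest in no single population in either condition, and Grem1 had too few counts to be tested. Gdf10 and Fst passed the filter on low counts, which ran over all 8 groups, through MSC. Gdf10 averaged 763 CPM in uninjured MSC and at most 0.377 CPM in any other uninjured population. Fst averaged 196 CPM there and at most 0.550 CPM in the others. Their calls were largely set in advance, so the shares above are descriptions and not a test.

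The effect of injury was tested separately in the 4 populations. Of the 10 genes, 9 passed the filter on low counts, which gave 36 tests, and 16 passed: 7 genes by population were higher and 9 lower after injury. In MuSC 3 of 9 rose and 3 fell (66.7% changed, against 38.8% of all genes tested, 21.4% higher and 17.5% lower). In CD31+ cells 3 rose and 1 fell (44.4%, against 23.4%, with 14.1% higher and 9.3% lower over all genes; the same 3 and 1 in number without injured replicate 1), in MSC none rose and 4 fell (44.4%, against 41.9%, with 18.3% higher and 23.6% lower), and in CD45+ cells 1 rose and 1 fell (22.2%, against 34.5%, with 16% higher and 18.5% lower). Most of the 9 genes had few counts in CD45+ cells and passed the filter through other populations. Injured and uninjured counts there were 0 and 4 for Gdf10, 3 and 0 for Inhbb and 5 and 0 for Fst. Bmper had 9 and 0, Bmp4 2 and 11, and Bmp6 4 and 9. Such counts leave little room to pass, so the CD45+ share does not measure a weaker response. For MSC, where no gene of the 9 rose by edgeR or with DESeq2, 4 of 9 had an unadjusted p below 0.05 and all 4 of these were falls. The median log2 fold change of the 9 genes was -1.37 in MSC (-0.22 over all genes), -0.04 in CD31+ cells (-0.04) and 0.34 in MuSC (-0.04). In CD45+ cells it was 2.38 as fitted and 0.02 over the 8 genes for which a value or bound could be given, 3 of them at their bound (-0.12 over all genes). Injured and uninjured values were apart, with no overlap between libraries, for 4 of the 9 genes in CD31+ cells (44.4%, against 37.3% of all genes), 3 in CD45+ cells (33.3%, against 43%), 6 in MSC (66.7%, against 55%) and 5 in MuSC (55.6%, against 49.5%), shares near those of all genes.

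**Figure D2:**
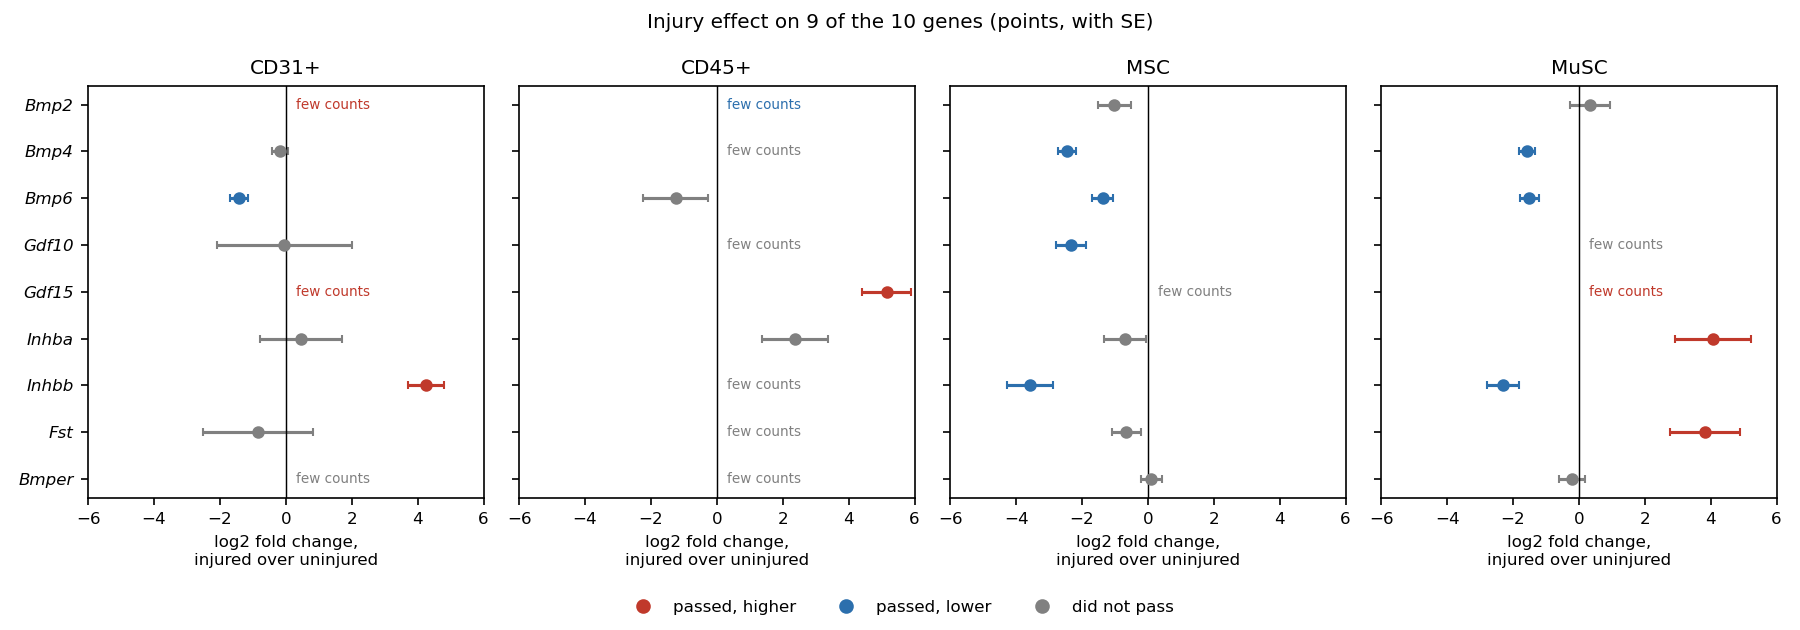
Log2 fold change of 9 genes after injury with its SE in each population, from 3 injured and 3 uninjured libraries; red and blue passed the test, and "few counts" marks pairs of groups in which 1 had 0 to 3 counts in all, for which no fitted value is drawn. Bmp6 lies at -1.42, -1.37 and -1.51 in CD31+ cells, MSC and MuSC, while Inhbb lies at 4.27 in CD31+ cells and at -3.58 and -2.31 in MSC and MuSC.

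Bmp2 encodes a ligand known for inducing bone and cartilage (chromosome 2, 133552159 to 133562885, plus strand, GRCm38; protein coding). It was at 32.3, 31.6 and 15.9 CPM in the 3 injured CD31+ libraries, against 0, 0.282 and 0 CPM in the uninjured ones. The groups did not overlap, and the counts behind them were 473 and 1 (ratio 307, 95% counting interval 54.8 to 12136, adjusted p = 5.70e-07). CD45+ cells went the other way. There Bmp2 was at 0.505, 0 and 0 CPM after injury, against 9.97, 2.02 and 1.72 CPM in uninjured cells, or 2 and 55 counts (ratio 0.033, interval 0.0039 to 0.125, adjusted p = 0.000498). In MSC it was at 10.8, 5.14 and 8.27 CPM in injured and 12.7, 10.5 and 26.0 CPM in uninjured libraries, which overlapped (log2 fold change -1.02 ± 0.50 SE, adjusted p = 0.110). MuSC averaged 3.30 ± 0.363 CPM injured and 2.64 ± 0.783 CPM uninjured (SD, n = 3; adjusted p = 0.701). The order of the populations thus differed with injury. In injured muscle CD31+ cells stood above MSC (log2 difference 1.71 ± 0.50, adjusted p = 0.00620), and MSC and MuSC did not pass against each other (1.29 ± 0.53, adjusted p = 0.0671). In uninjured muscle MSC stood above CD45+ cells, MuSC and CD31+ cells. Against CD45+ cells, the next below, the log2 difference was 1.80 (given as CD45+ minus MSC, -1.80 ± 0.54, adjusted p = 0.00654). Without uninjured MSC replicate 3 Bmp2 no longer passed as highest in uninjured MSC.

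Bmp4, a close relative of Bmp2 (chromosome 14, 46383520 to 46390669, minus strand), and Bmp6 (chromosome 13, 38345107 to 38500302, plus strand), a ligand that endothelial cells of the liver are known to secrete in the control of iron balance, were, of the 3 BMP ligand genes, those with the higher levels per kilobase in MuSC and CD31+ cells. The sequencing did not mark strand. Bmp4 shares 89 exon bases with genes on the opposite strand and Bmp6 shares 224, so reads there could belong to either. Their promoters are shown because both genes fell in more than 1 population. Each run holds 250 bases before and 50 after the start site in RefSeq (GRCm38.p6), written in the direction of transcription, and capitals mark matches to the motifs named after the sequences.
Bmp4 promoter, chr14:46390620-46390919, minus strand: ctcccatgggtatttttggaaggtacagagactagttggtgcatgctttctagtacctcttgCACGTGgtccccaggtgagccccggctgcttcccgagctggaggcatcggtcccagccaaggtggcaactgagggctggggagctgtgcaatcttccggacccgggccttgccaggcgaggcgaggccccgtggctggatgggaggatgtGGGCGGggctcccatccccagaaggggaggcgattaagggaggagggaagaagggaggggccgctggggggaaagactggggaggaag
Bmp6 promoter, chr13:38345466-38345765, plus strand: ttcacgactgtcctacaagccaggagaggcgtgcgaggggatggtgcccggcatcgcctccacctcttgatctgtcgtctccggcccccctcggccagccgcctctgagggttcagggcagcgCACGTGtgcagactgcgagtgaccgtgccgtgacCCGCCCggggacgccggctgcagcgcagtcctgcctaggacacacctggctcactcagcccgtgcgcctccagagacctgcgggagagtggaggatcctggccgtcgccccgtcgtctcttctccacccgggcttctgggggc
The search on both strands covered 10 motifs: the C/EBP-ATF element TGATGNAA, the AP-1 site TGANTCA, the cAMP response element TGACGTCA, the SMAD palindrome GTCTAGAC, the GC-rich SMAD motif GGCGCC, the TATA box TATAAA, the E-box CACGTG, the NF-kB site, the GC box GGGCGG and the CCAAT box CCAAT. Both windows hold 1 E-box, at position -188 in Bmp4 and -127 in Bmp6, and 1 GC box, at -38 in Bmp4 and -93 in Bmp6. The whole Bmp6 window lies inside the GENCODE gene, which begins at 38345107, and so is not upstream of that gene. Of 32851 RefSeq promoter windows of this length, 7.15% hold the E-box and 35.7% the GC box. These matches are descriptions of letters and not of binding.

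Bmp4 fell in the cells that carried most of it. In MuSC it was at 157, 161 and 128 CPM after injury, against 499.5, 420 and 406 CPM in uninjured cells, with no overlap (log2 fold change -1.57 ± 0.25, adjusted p = 2.76e-05). In MSC it was at 19.9, 40.1 and 30.9 CPM after injury, against 168, 151 and 177 CPM in uninjured cells, again with no overlap (-2.45 ± 0.26, adjusted p = 1.69e-07). In CD31+ cells the libraries overlapped, at 93.1, 72.2 and 52.2 CPM injured and 67.2, 81.3 and 97.9 CPM uninjured (-0.18 ± 0.25, adjusted p = 0.664). The response of CD31+ cells differed from that of MSC by 2.28 ± 0.36 (log2, adjusted p = 0.000195) and from that of MuSC by 1.40 ± 0.35 (adjusted p = 0.0100), and the second did not pass without injured MuSC replicates 2 and 3 (1.32, adjusted p = 0.0869). The responses of MSC and MuSC did not pass against each other (-0.88 ± 0.35, adjusted p = 0.148). CD45+ cells had 2 counts injured and 11 uninjured. In both conditions MuSC had the highest level. CD31+ cells stood above MSC in injured muscle (1.26 ± 0.26, adjusted p = 0.000334) and below them in uninjured muscle (-1.01 ± 0.25, adjusted p = 0.00205).

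Bmp6 fell in CD31+ cells, MSC and MuSC, as did 3.95% of all genes tested. CD31+ cells had 30.3, 52.4 and 46.2 CPM after injury, against 126, 76.8 and 141 CPM in uninjured cells (-1.42 ± 0.28, adjusted p = 0.000516). MuSC had 29.5, 35.0 and 30.5 CPM after injury, against 77.4, 88.8 and 104 CPM in uninjured cells (-1.51 ± 0.28, adjusted p = 0.000150). MSC had 7.97, 8.29 and 6.47 CPM after injury, against 15.4, 22.4 and 21.5 CPM in uninjured cells (-1.37 ± 0.32, adjusted p = 0.00127). None of these 3 pairs of groups overlapped. The 3 falls lay close together: CD31+ cells minus MSC gave -0.04 ± 0.45 on the log2 scale, CD31+ cells minus MuSC 0.09 ± 0.39, and MSC minus MuSC 0.14 ± 0.43, and the test over all 4 populations gave an adjusted p of 0.996. A test that does not pass does not show that the falls were equal. CD45+ cells had 4 counts injured and 9 uninjured, a difference that did not pass (adjusted p = 0.355). Without injured replicate 3, which held all 4, it passed (0.0392). CD31+ cells and MuSC did not pass against each other in injured muscle (0.44 ± 0.28, adjusted p = 0.194) or in uninjured muscle (0.34 ± 0.27, adjusted p = 0.316). Both stood above MSC in either condition.

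**Figure D3:**
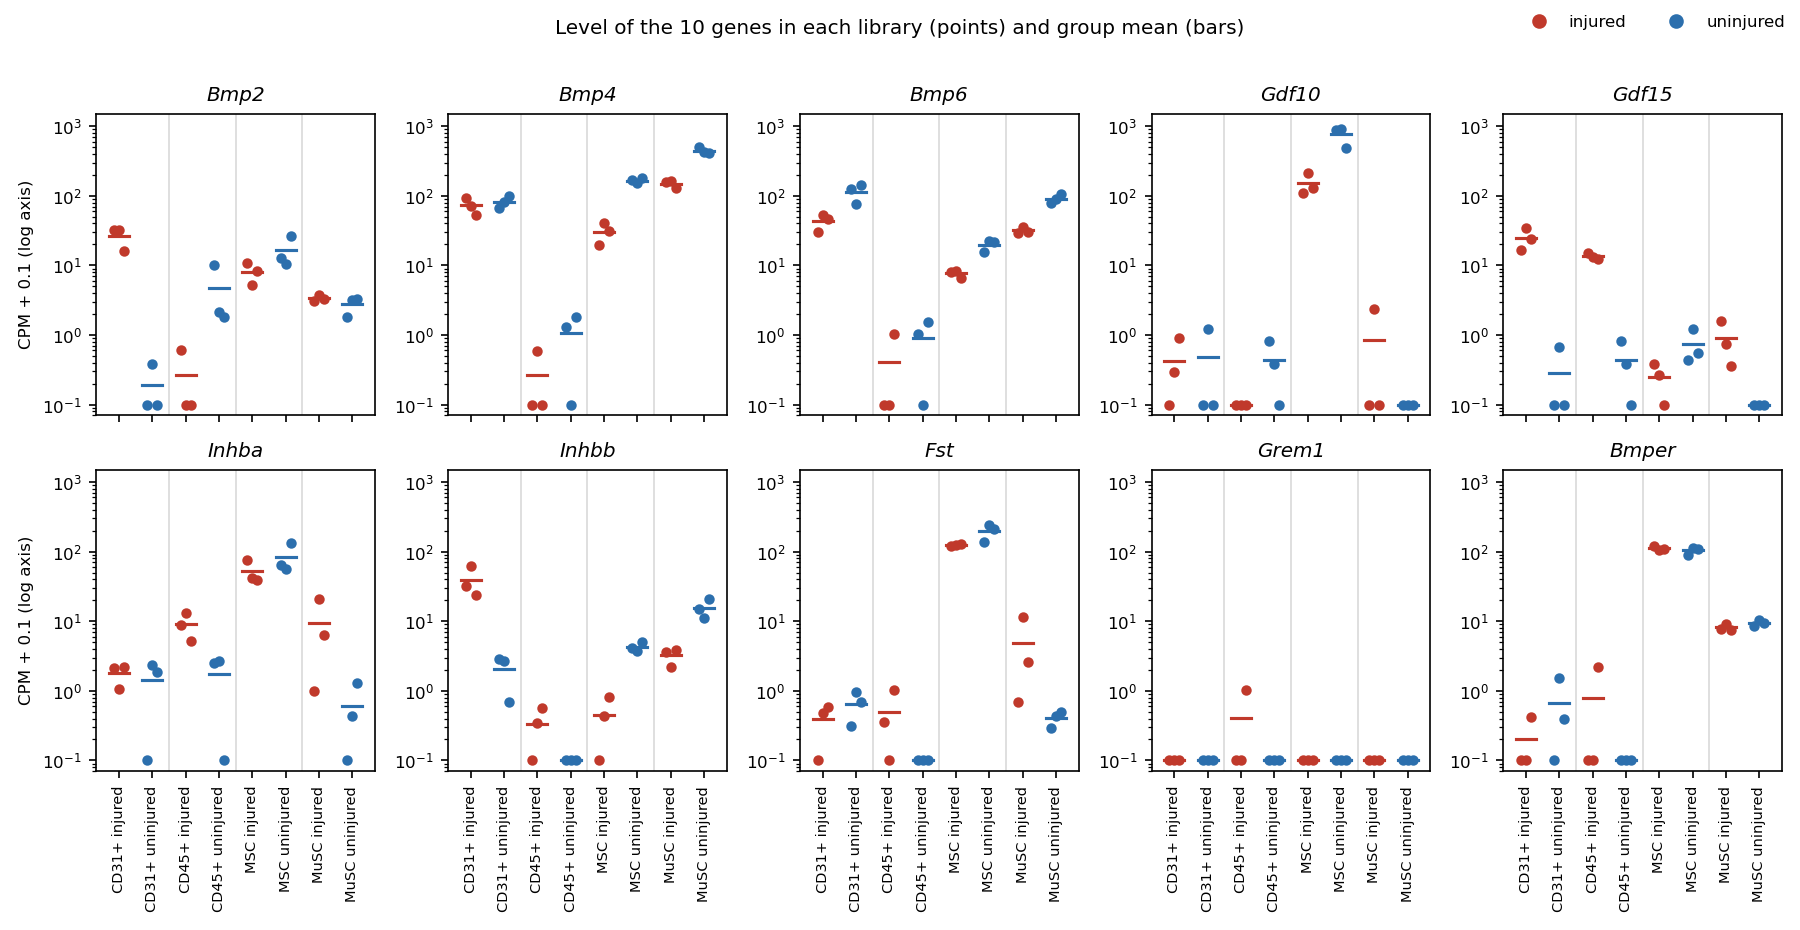
Level of each of the 10 genes in every library (points, CPM + 0.1 on a log axis), with the group mean as a bar; injured groups are red and stand left of the uninjured groups in blue. Bmp4 and Bmp6 lie lower in injured than in uninjured MSC and MuSC, and Bmp2, Gdf15 and Inhbb lie higher in injured CD31+ cells than in uninjured ones, whose means are at most 1.96 CPM.

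Gdf10, also called BMP3B, encodes a ligand that is known to mark fibroblasts and to bind activin receptors (chromosome 14, 33923587 to 33937983, plus strand). Nearly all of its counts were in MSC. It stood at 110, 215 and 130 CPM in injured MSC, against 893, 903 and 492 CPM in uninjured MSC, with no overlap (log2 fold change -2.33 ± 0.45, adjusted p = 0.000849). With DESeq2 this fall did not pass (-2.42, adjusted p = 0.303), and over the other alternatives it did. In the CD31+ and CD45+ libraries it reached at most 1.13 CPM, the value of 1 uninjured CD31+ library with 4 counts. Uninjured MuSC had 0 counts in 3 libraries, and the 14 counts of injured MuSC were all in replicate 2, the library with the highest Pdgfra level of that group. Even at its lower level after injury Gdf10 was far above the other injured populations in MSC (log2 difference from MuSC 7.74 ± 0.71, adjusted p = 1.35e-06).

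Gdf15 (chromosome 8, 70629393 to 70632456, minus strand) and Inhbb (chromosome 1, 119415465 to 119422248, minus strand) rose in CD31+ cells together with Bmp2, and their promoters are shown for that reason, in the same form as above. RefSeq gives 2 windows for Gdf15, and both are shown.
Gdf15 promoter, chr8:70632407-70632706, minus strand: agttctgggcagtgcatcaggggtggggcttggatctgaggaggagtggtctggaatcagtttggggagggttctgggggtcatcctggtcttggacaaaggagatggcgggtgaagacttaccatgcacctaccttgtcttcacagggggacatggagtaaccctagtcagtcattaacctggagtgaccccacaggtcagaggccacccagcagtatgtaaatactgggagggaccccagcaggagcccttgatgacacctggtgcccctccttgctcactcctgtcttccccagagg
Gdf15 promoter, chr8:70632046-70632345, minus strand: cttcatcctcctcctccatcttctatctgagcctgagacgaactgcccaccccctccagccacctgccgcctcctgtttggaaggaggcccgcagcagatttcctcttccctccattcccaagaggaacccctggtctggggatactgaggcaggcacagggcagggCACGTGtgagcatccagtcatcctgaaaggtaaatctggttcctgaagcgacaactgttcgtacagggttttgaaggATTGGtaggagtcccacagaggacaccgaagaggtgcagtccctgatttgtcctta
Inhbb promoter, chr1:119422199-119422498, minus strand: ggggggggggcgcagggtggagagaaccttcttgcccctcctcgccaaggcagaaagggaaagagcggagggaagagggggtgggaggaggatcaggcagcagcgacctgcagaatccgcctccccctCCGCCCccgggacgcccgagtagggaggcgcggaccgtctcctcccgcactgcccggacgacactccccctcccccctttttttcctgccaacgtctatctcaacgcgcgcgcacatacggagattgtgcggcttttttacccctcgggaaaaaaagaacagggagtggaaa
The first Gdf15 window, whose start site is the end of the GENCODE gene, holds none of the 10 motifs and 1 CpG, and 57% of its bases are G or C. The other one lies inside the GENCODE gene and holds 1 E-box, at -83, and 1 CCAAT box, at -6, with 7 CpGs and 56% G or C. The CCAAT box is in 37.4% of all windows. The Inhbb window holds 1 GC box, at -122, and 23 CpGs, with 64.3% G or C. The median over all windows is 52.7% G or C. A window without a match says only that these letters are not in it.

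Gdf15 was almost silent in uninjured muscle, with at most 1.12 CPM in any of the 12 libraries. In CD31+ cells it was at 16.3, 34.3 and 23.7 CPM after injury, against 0, 0.565 and 0 CPM in uninjured cells, or 432 and 2 counts (ratio 140, interval 38.5 to 1160, adjusted p = 9.34e-07). In CD45+ cells it was at 15.2, 13.0 and 12.4 CPM after injury, against 0.712, 0.289 and 0 CPM in uninjured cells (log2 fold change 5.16 ± 0.74, adjusted p = 1.37e-05). The groups did not overlap in either population. MuSC had 1.49, 0.642 and 0.260 CPM after injury and 0 counts in each uninjured library, which made the injured level at least 3.41-fold higher when 3 counts over the uninjured group are taken as the limit (adjusted p = 0.0116). That call was lost without injured replicate 1 (adjusted p = 0.0556; 0.00423 to 0.0556 over all alternatives). MSC had 3 counts injured and 9 uninjured (ratio 0.265, interval 0.0462 to 1.06; adjusted p = 0.165). Rises in CD31+ cells, CD45+ cells and MuSC together were found for 5.84% of all genes tested. After injury CD31+ and CD45+ cells did not pass against each other (0.87 ± 0.49, adjusted p = 0.140), and each passed against MSC and MuSC. Gfral, which encodes the GDF15 receptor, had a mean of at most 0.382 CPM in any group.

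Both activin beta subunit genes were measured. Inhbb, which encodes the beta B subunit of activin B and inhibin B, was at 32.2, 62.5 and 23.5 CPM in injured CD31+ cells, against 2.76, 2.54 and 0.589 CPM in uninjured ones (log2 fold change 4.27 ± 0.54, adjusted p = 3.52e-06). In MuSC it was at 3.57, 2.09 and 3.76 CPM after injury, against 15.1, 10.8 and 20.8 CPM in uninjured cells (-2.31 ± 0.49, adjusted p = 0.000624). In MSC it was at 0, 0.332 and 0.719 CPM after injury, against 4.02, 3.58 and 4.89 CPM in uninjured cells (-3.58 ± 0.70, adjusted p = 0.000270). None of these groups overlapped. The response of CD31+ cells differed from that of MuSC by 6.57 ± 0.73 and from that of MSC by 7.85 ± 0.87 (log2, adjusted p = 3.26e-06 and 2.96e-06), while MSC and MuSC did not pass against each other (-1.27 ± 0.86, adjusted p = 0.474). CD45+ cells had 3 counts injured and 0 uninjured. In injured muscle CD31+ cells stood above MuSC (3.63 ± 0.49, adjusted p = 1.86e-06). In uninjured muscle they stood below MuSC (-2.94 ± 0.54, adjusted p = 9.07e-05).

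Inhba, which encodes the beta A subunit of activin A (chromosome 13, 16011851 to 16031621, plus strand), was highest in MSC. It was at 75.1, 41.6 and 39.0 CPM in injured MSC and at 64.7, 56.9 and 132 CPM in uninjured MSC, which overlapped (-0.70 ± 0.64, adjusted p = 0.413). CD45+ cells had 8.59, 13.0 and 5.14 CPM after injury, against 2.37, 2.60 and 0 CPM in uninjured cells. These did not overlap, but the difference did not pass (2.38 ± 1.00, adjusted p = 0.0745); it passed in a fit of the 6 CD45+ libraries alone (adjusted p = 0.0264; 0.0181 to 0.204 over all alternatives). In CD31+ cells it averaged 1.68 ± 0.614 CPM injured and 1.34 ± 1.19 CPM uninjured (SD, n = 3; adjusted p = 0.834).

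In MuSC Inhba was at 0.893, 20.9 and 6.23 CPM after injury, against 0, 0.339 and 1.18 CPM in uninjured cells. It passed (4.06 ± 1.16, adjusted p = 0.00900), although injured replicate 1 lay within the uninjured range. Fst showed the same order of libraries in MuSC, with 0.595, 11.2 and 2.47 CPM after injury, against 0.194, 0.339 and 0.393 CPM in uninjured cells (3.83 ± 1.07, adjusted p = 0.00882). The stromal transcript Pdgfra ran in the same order among the injured libraries, with 0.298, 48.8 and 25.4 CPM. In the uninjured libraries its order was another, with 0.194, 0.339 and 0 CPM. Lum, another stromal transcript, was at 4.02, 66.5 and 55.4 CPM injured and 12.8, 1.02 and 3.73 CPM uninjured. Of the 8 stromal markers, 3 rose in MuSC, 1 fell and 4 did not pass. Dpt, the marker that fell, was at 95.4, 189 and 146 CPM injured and 651, 654 and 558 CPM uninjured (-2.11 ± 0.33, adjusted p = 6.83e-05). The summed level of all 8 stromal markers was 467 to 1101 CPM injured and 1530 to 1724 CPM uninjured, with all 8 detected in each injured library. The largest part of this sum in MuSC came from markers other than Pdgfra. Relative to Pdgfra, Inhba stood at 0.428 and 0.245 in injured MuSC replicates 2 and 3 and at 0.0566 to 0.123 in injured MSC. Fst stood at 0.230 and 0.0969 in these MuSC libraries and at 0.170 to 0.210 in injured MSC, and Gdf10 at 0.0461 and 0, against 0.181 to 0.292 in injured MSC. Without both of these MuSC libraries neither gene passed (Inhba 0.73, adjusted p = 0.791; Fst 0.92, adjusted p = 0.596), a fit in which the lone injured MuSC library is assumed to vary like the other groups. Without replicate 2 alone Inhba did not pass (2.73, adjusted p = 0.0672). The count of 6 changed genes in MuSC was 4 without both libraries, with 1 rise and 3 falls. Without uninjured MuSC replicate 3 it was 6, with Inhba at an adjusted p of 0.0168, Fst at 0.0339 and Gdf15 at 0.0411.

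**Figure D4:**
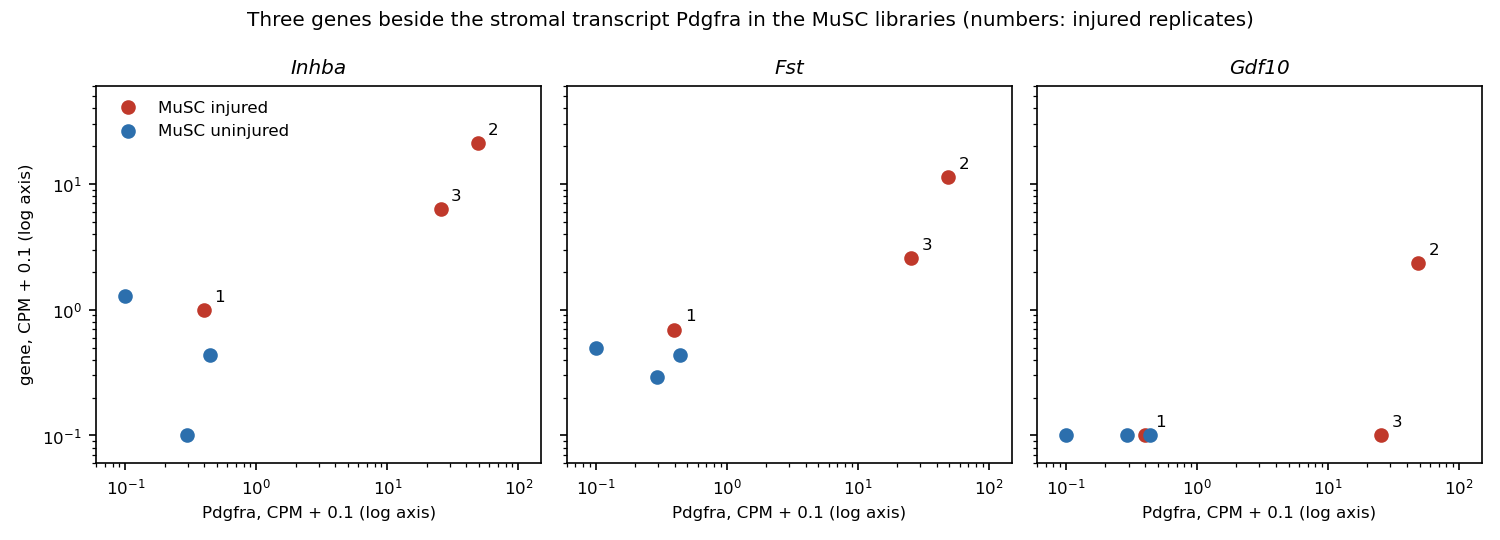
Inhba, Fst and Gdf10 (vertical axes, CPM + 0.1) beside Pdgfra (horizontal axes, CPM + 0.1), all on log axes, in the 3 injured (red, numbered by replicate) and 3 uninjured (blue) MuSC libraries. Injured replicate 1, with 0.298 CPM of Pdgfra, lies near the uninjured libraries, and replicates 2 and 3, with 48.8 and 25.4 CPM, lie apart from them for Inhba and Fst.

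Fst encodes follistatin, which binds and neutralizes activins and some BMPs (chromosome 13, 114452290 to 114458951, minus strand; 115 exon bases shared with an antisense gene). In MSC, where nearly all of its counts were found, it was at 120, 125 and 129 CPM after injury, against 136, 242 and 211 CPM in uninjured cells. The libraries did not overlap, but the difference did not pass (-0.66 ± 0.44, adjusted p = 0.249; 0.0311 to 0.696 over all alternatives). The responses of MSC and MuSC differed by -4.48 ± 1.16 (adjusted p = 0.0233), a value that rests on the injured MuSC libraries described above and did not pass without the filter on low counts (0.0946). Fst reached at most 0.934 CPM in CD45+ and 0.847 CPM in CD31+ libraries.

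Bmper encodes a secreted protein that binds BMPs and is known in endothelial cells as a modulator of BMP4 (chromosome 9, 23223076 to 23485200, plus strand). Its fitted injury effect in MSC was the smallest of the 9 genes. It was at 121, 104 and 110 CPM in injured MSC and at 90.5, 112 and 110 CPM in uninjured MSC, which overlapped (0.10 ± 0.32, adjusted p = 0.847). MuSC carried it at a lower level, with 7.74, 8.99 and 7.40 CPM after injury and 8.52, 10.2 and 9.42 CPM in uninjured cells (-0.21 ± 0.39, adjusted p = 0.711). MSC stood above MuSC in injured muscle (3.79 ± 0.37, adjusted p = 6.99e-08) and in uninjured muscle (3.48 ± 0.38, adjusted p = 1.59e-07). CD31+ cells had 2 counts injured and 6 uninjured. In CD45+ cells all 9 counts were in injured replicate 3. Grem1, which encodes the BMP antagonist gremlin 1 (chromosome 2, 113746164 to 113758646, minus strand), had 4 counts in the whole table, all in that same library, where Pdgfra was at 6.31 CPM and the 8 stromal markers summed to 209 CPM, against 3.54 and 1.47 CPM in the other two injured CD45+ libraries. In the other 23 libraries Grem1 had 0 counts.

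For each gene an F test compared the 4 injury effects with one another, which 35.9% of all genes tested passed. It passed for 6 of the 9 genes: Bmp2 (adjusted p = 5.91e-07), Inhbb (6.12e-07), Gdf15 (0.000258), Bmp4 (0.000328), Fst (0.0253) and Inhba (0.0321). The tests of Fst and Inhba did not pass without injured MuSC replicates 2 and 3, a fit with 1 injured MuSC library. That of Fst did not pass without uninjured MuSC replicate 1, 2 or 3 either (adjusted p = 0.0825, 0.0537 and 0.0674). The test of Inhba was also lost without uninjured MuSC replicate 1 or 2, injured MSC replicate 2 or 3, or uninjured MSC replicate 1 or 3 (0.0510 to 0.0718). The F test did not pass for Bmper (adjusted p = 0.120), Gdf10 (0.165) or Bmp6 (0.996). Between pairs of populations, the response of CD31+ cells differed from that of MSC for Bmp2, Bmp4, Gdf15 and Inhbb (12.6% of all genes tested), from that of MuSC for Bmp2, Bmp4 and Inhbb (12.3%) and from that of CD45+ cells for Bmp2 (17.1%). The response of CD45+ cells differed from that of MSC for Bmp2, Gdf15 and Inhbb (25.1%) and from that of MuSC for Bmp2 (24.4%), and that of MSC from that of MuSC for Gdf15, Fst and Inhba (7.73%). Several of these pairwise calls rest on single libraries. Between CD45+ cells and MSC, that of Inhbb, with 3 counts in injured and 0 in uninjured CD45+ cells, was lost without injured CD45+ replicate 2 or 3 (adjusted p = 0.0568 and 0.164), and that of Bmp2 without injured CD45+ replicate 2 or 3 or uninjured CD45+ replicate 1 (0.0699 to 0.135). Between MSC and MuSC, leaving out 1 library ended the call of Inhba in 8 cases (0.0506 to 0.117), that of Gdf15 in 5 (0.0504 to 0.0769) and that of Fst in 3, each of the uninjured MuSC libraries (0.0524 to 0.0864). Without injured MuSC replicates 2 and 3 together, Inhba and Fst did not pass there either (0.822 and 0.63), and without the filter on low counts Inhba did not (0.115). For Bmp2 the difference was 8.92 ± 1.08 on the log2 scale between CD31+ cells and MSC (adjusted p = 5.28e-06), with 1 count in the uninjured CD31+ group.

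The genes most like each of the 9 over the 24 libraries were found by Pearson's r of log2 CPM. The libraries share 4 populations, so that r mainly reads where a gene is expressed, and no test is given. Bmp4 was most like Dmd (r = 0.984), Snai2 (0.977) and Nat14 (0.973), and Bmp6 most like Hoxa7 (0.977), Mical3 (0.970) and Acacb (0.968). Gdf10 followed Cyp2f2 (0.979), Serpina3c and Clec3b (both 0.977), Fst followed Mme and Dpep1 (both 0.978) and Podn (0.975), and Bmper followed Ms4a4d and Gpm6b (both 0.977) and Svep1 (0.974). Inhba was nearest to Ptges (0.943), Pla1a (0.895) and Podn (0.891), and Inhbb to Eva1c (0.937), Dusp8 (0.889) and Ppp1r14a (0.863). Gdf15 was nearest to AA467197 (0.922), Cdkn1a (0.873) and Zfand2a (0.865), and Bmp2 had the loosest neighbours, Fhl2 (0.826), Asb4 (0.782) and Dbn1 (0.780). Among the 9 genes themselves, r was highest between Gdf10 and Fst (0.960), Bmp4 and Bmp6 (0.922), Bmper and Fst (0.896) and Inhba and Fst (0.865), and lowest between Gdf15 and Bmper (-0.45).

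Other genes of the pathway were counted in 5 lists. Of 21 other ligand genes 9 had enough counts to be tested. In MSC 1 rose and 4 fell (55.6% passed, against 41.9% of all genes; median log2 fold change -1.01, against -0.22): Bmp7 was at 1.24 ± 1.08 CPM injured and 28.2 ± 10.6 CPM uninjured (adjusted p = 5.19e-05), and Bmp3, which encodes an atypical BMP that opposes the others, at 1.25 ± 0.789 and 19.1 ± 10.6 CPM (0.000655). In CD45+ cells 1 rose, Gdf3, at 35.2 ± 16.1 CPM injured and 3.49 ± 2.80 CPM uninjured (0.000694), and 2 fell. In CD31+ cells 1 fell and in MuSC 1 rose, both at means of at most 0.994 CPM (11.1% each, against 23.4% and 38.8% of all genes). The rise in MuSC, that of Bmp5, did not pass without uninjured replicate 3 (adjusted p = 0.0785). Mstn, which encodes myostatin, had a mean of at most 0.377 CPM in any group. Of 12 other antagonists and modulators tested of 18, 1 rose and 6 fell in MSC (median -1.23), 1 rose and 3 fell in MuSC (-0.72), 1 rose and 1 fell in CD45+ cells (-0.25) and 1 fell in CD31+ cells (-0.36). The 6 falls in MSC were 50% of the list, against 23.6% of all genes, while in MuSC 33.3% passed in either direction, against 38.8%, in CD45+ cells 16.7%, against 34.5%, and in CD31+ cells 8.33%, against 23.4%. In MSC Nbl1, a gremlin relative, was at 113 ± 18.0 CPM injured and 524 ± 230 CPM uninjured (adjusted p = 0.000483), Kcp, a chordin relative, at 29.7 ± 3.50 and 144 ± 18.9 CPM (0.000667), and Twsg1, which helps chordin to bind BMPs, at 29.2 ± 3.33 and 75.0 ± 17.9 CPM (0.000150). In MuSC the chordin relative Chrdl2 was at 116 ± 63.1 CPM injured and 556 ± 102 CPM uninjured (0.000203), while Fstl3, a follistatin relative, rose to 20.7 ± 3.01 CPM, against 6.16 ± 0.538 CPM in uninjured cells (0.000646). Crim1, a membrane protein gene that binds BMPs, fell in CD45+ cells, MSC and MuSC (adjusted p = 7.59e-07, 6.54e-05 and 1.24e-05). Nog, which encodes the BMP antagonist noggin, had a mean of at most 0.0932 CPM in any group, and Sost, which encodes sclerostin, had 0 counts throughout.

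Of 15 receptor and coreceptor genes 12 were tested. In MuSC 6 fell (50%, against 17.5% of all genes) and in CD31+ cells 4 fell (33.3%, against 9.3%). In each of MSC and CD45+ cells 4 fell (33.3%, against 23.6% and 18.5%) and 1 rose. The medians were -0.57 in MuSC, -0.71 in CD31+ cells, -0.54 in MSC and -0.32 in CD45+ cells, against -0.04, -0.04, -0.22 and -0.12 over all genes. In CD31+ cells the type II receptor genes Acvr2a and Bmpr2 were at 25.2 ± 2.03 and 58.2 ± 10.4 CPM injured, against 49.6 ± 11.2 and 92.0 ± 13.7 CPM uninjured (adjusted p = 0.00952 and 0.0251; Bmpr2 did not pass without the filter on low counts, 0.104). Bmpr1a, which also fell in CD31+ cells, averaged 0.676 CPM injured and 2.87 CPM uninjured (adjusted p = 0.0227). The injured and uninjured libraries overlapped for Bmpr1a. In MSC Bmpr2 was at 23.9 ± 0.750 CPM injured and 56.0 ± 5.43 CPM uninjured (8.34e-05). In MuSC the activin receptor gene Acvr2b was at 5.32 ± 0.577 CPM injured and 18.7 ± 2.47 CPM uninjured (0.00208; 0.0726 without injured replicates 2 and 3), and the coreceptor gene Tgfbr3 at 95.7 ± 25.1 and 319 ± 33.3 CPM (0.000350). In CD45+ cells Acvr2a rose to 17.1 ± 8.71 CPM, against 5.40 ± 1.95 CPM in uninjured cells (0.000364). Of 8 SMAD genes all were tested, and the share that passed was 37.5% in CD45+ cells, MSC and MuSC and 12.5% in CD31+ cells, near or below that of all genes. Smad2, an activin-regulated SMAD gene, rose in CD31+ cells (log2 fold change 0.89 ± 0.18, adjusted p = 0.000671), MSC (0.79 ± 0.18, 0.00102), CD45+ cells (0.58 ± 0.17, 0.0116) and MuSC (0.52 ± 0.18, 0.0206), although not in MuSC with RLE scaling (0.42, 0.0579) or without uninjured MuSC replicate 3 (0.47, 0.0756). Smad7, an inhibitory SMAD gene, rose in MSC and MuSC (1.44 ± 0.38 and 1.28 ± 0.41; adjusted p = 0.00331 and 0.0151, the second 0.0555 without injured MuSC replicates 2 and 3), and Smad3 fell in MuSC (-1.21 ± 0.23, adjusted p = 0.000197).

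The list of BMP target genes, which shares Smad6, Smad7, Smad9 and Bambi with other lists, had 10 members tested. In CD45+ cells 5 rose, in MSC 3 rose and 2 fell, in MuSC 3 rose and 1 fell, and in CD31+ cells 1 rose and 1 fell (medians 0.87, -0.19, 0.17 and -0.21, against -0.12, -0.22, -0.04 and -0.04 over all genes). The share that passed was 50% in CD45+ cells (34.5% of all genes), 50% in MSC (41.9%), 40% in MuSC (38.8%) and 20% in CD31+ cells (23.4%), near that of all genes in the last 3. In CD45+ cells 50% rose, against 16% of all genes. Of these 5 rises, those of Hey1 and Smad6 were at levels near the limit set by 3 counts. Hey1 was at 1.76 ± 1.34 CPM injured and 0.270 ± 0.288 CPM uninjured (adjusted p = 0.0214). Smad6 was at 1.22 ± 0.844 and 0.158 ± 0.274 CPM (0.0440), and its libraries overlapped. Id1, which encodes an inhibitor of basic helix-loop-helix factors and is a direct BMP target in many cells, rose in each of the 4 populations. It was at 502 ± 88.1 CPM injured and 186 ± 37.7 CPM uninjured in CD31+ cells (adjusted p = 0.000744), at 43.4 ± 4.94 and 2.26 ± 1.08 CPM in CD45+ cells (3.92e-07), and at 43.3 ± 26.9 and 16.4 ± 1.48 CPM in MSC (0.00122). In MuSC it was at 165 ± 23.0 CPM injured and 52.0 ± 3.89 CPM uninjured (0.000125). Its relative Id2 rose in MuSC, at 165 ± 18.8 CPM injured and 40.9 ± 6.98 CPM uninjured (1.07e-06), and in CD45+ cells, at 192 ± 15.6 and 116 ± 10.1 CPM (0.0222), and fell in MSC, at 32.6 ± 8.48 and 59.4 ± 28.5 CPM (0.00778). Hey1, a transcription factor gene that Notch also drives, fell in MuSC to 74.9 ± 11.2 CPM, against 232 ± 25.9 CPM in uninjured cells (7.79e-06). Bambi, which encodes a pseudoreceptor, fell in CD31+ cells, at 72.0 ± 8.16 CPM injured and 137 ± 27.6 CPM uninjured (0.0145), and rose in CD45+ cells, at 32.1 ± 15.3 and 8.66 ± 1.95 CPM (8.34e-05).

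**Figure D5:**
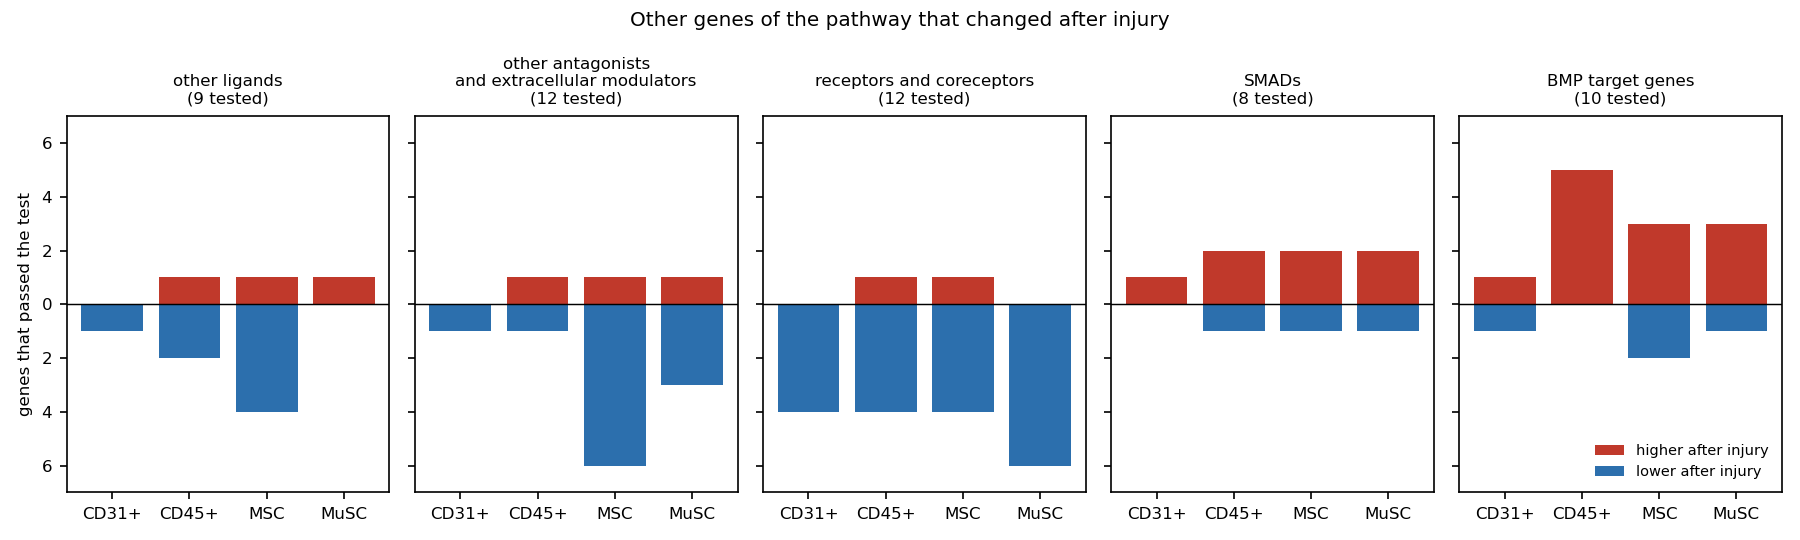
Number of genes in 5 lists of the pathway that passed the test after injury in each population (vertical axis: genes higher above 0, genes lower below 0), with the number tested over each panel. Receptor and coreceptor genes reach 6 falls in MuSC. The list of other antagonists and modulators reaches 6 falls in MSC, and the target list reaches 5 rises in CD45+ cells.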

How the data were processed

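RNA was measured in 24 libraries of sorted cells, by oligo(dT) priming, PCR amplification, Nextera XT and paired reads of 25 bases, per the labels' protocols. These carry no strand mark and no molecular identifiers. The table deposited by the authors holds whole-number read counts for each symbol, not normalized. STAR 2.5.4, featureCounts and mm10 were used, per the submitters' processing notes; the annotation and the counting options were not given in the sources used here. PCR copies count as separate reads, and reads of overlapping antisense genes cannot be told apart. Positions and exon lengths come from GENCODE vM21 (GRCm38), promoters from RefSeq, which held 8 of the 10 genes.

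From the counts, edgeR 4.0.16 (R 4.3.3, limma 3.58.1) filtered genes over the 8 groups (16263 of 52997 kept), scaled libraries by TMM, fitted group means with the 24 libraries together (residual degrees of freedom: 16), and gave robust quasi-likelihood tests, with Benjamini-Hochberg adjustment over all genes in each comparison. An adjusted p below 0.05 passed. SEs are the fold change over the square root of F. Where a group had 0 to 3 counts, the ratio of counts is given with an exact 95% interval, or as a bound against 3 counts over the group. That bound leaves out the counting error of the other group. No pair of replicates agreed within sampling noise. The fits were tested on simulated data with the same base levels in all groups and a common spread. Only genes above a set mean level were changed there, so the simulation does not cover the genes with few counts. Alternatives were RLE scaling, no filter, DESeq2 1.42.0, replicate blocks, libraries left out and fits within a population.

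The 10 genes, the lists and the markers were chosen with earlier results of these data known. All 10 are described; of each list up to 4 genes per comparison with the smallest adjusted p could be named, and Gfral, Mstn, Sost and Nog were named after their values were seen. The 3 genes of highest r are named for each gene, without unnamed gene models (prior count 2).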

Additional observations from a re-analysis of the deposited data

Results flagged for a closer look

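The injury response differed between the populations for 6 of the genes by an F test over the 4 injury effects (edgeR, adjusted over all genes). For Bmp2 (adjusted p = 5.906e-07) the level rose in CD31+ cells and fell in CD45+ cells. For Inhbb (6.117e-07) it rose in CD31+ cells and fell in MSC and MuSC. For Gdf15 (0.0002583) it rose in CD31+ cells, CD45+ cells and MuSC and had 3 counts injured and 9 uninjured in MSC. For Bmp4 (0.0003283) it fell in MSC and MuSC, and in CD31+ cells the difference did not pass. For Fst (0.02529) and Inhba (0.03212) it rose in MuSC, most in injured replicates 2 and 3, the libraries with 48.8 and 25.4 CPM of Pdgfra, and neither passed without both (0.1275 and 0.06378).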

How the results depend on the processing

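The counts of genes that passed stayed within 1.5 times the reported ones under all alternatives: 4 of 9 in CD31+ cells throughout, 2 to 3 in CD45+ cells, 3 (DESeq2) to 5 in MSC and 4 to 6 in MuSC. RLE scaling moved the median of all genes in CD31+ cells by -0.11, with 1926 genes higher and 2058 lower, against 2298 and 1512 with TMM, and turned round none of the 9 genes. The effects that changed sign were not called: Gdf10 in CD31+ cells (0.094 with no filter, 0.010 with the replicate block, -1.74 to 3.87 with 1 library left out), Inhba in CD31+ cells (-0.24 to 1.15) and Bmp4 in CD31+ cells (-0.40 to 0.014). Without a filter the F tests of Fst (adjusted p = 0.116) and Inhba (0.122) did not pass and that of Bmper did (0.00211; DESeq2 0.00413). With 1 library left out they ranged from 0.000977 to 0.0825 for Fst and from 0.00392 to 0.0718 for Inhba. The cause was not tested.

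The replicate numbers did not pair injured with uninjured libraries. There r of libraries with the same number was -0.083 to 0.072, and the own number gave the highest r in 7 of 24 cases. For 2 populations in the same condition r was -0.014 to 0.133 (median 0.0185, other numbers -0.0111), with 3 of 36 pairs over 0.1 (other numbers: 0 of 72). Here the own number gave the highest r in 50 of 72 cases, a hint from the data and not the design. A replicate block left the counts at 4, 2, 4 and 6 in CD31+ cells, CD45+ cells, MSC and MuSC and the F test of Inhba at an adjusted p of 0.0575, and the Inhba difference between the responses of MSC and MuSC at 0.0616. With the block set within each condition, the F test of Inhba was at 0.0750 and that Inhba difference at 0.0734. Depth limits the genes with few counts, such as Grem1.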
